A study of Mus musculus with 2 samples.

Results

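Lce3a, Lce3b, Lce3c and Lce3f are late cornified envelope genes, a family of small genes on mouse chromosome 3 whose proteins are built into the outer shell of terminally differentiated epithelial cells. They were taken by their gene symbols from the deposited spatial transcriptome tables of mouse tongue, in which they are 4 of 879 genes listed for either section and 4 of 284 genes listed for both. The WT section came from a mouse of genotype Krt14-Cre(-) with the LSL-H3K36M allele, and the H3K36M section from a mouse of genotype Krt14-Cre(+) with the same allele. The control therefore carried the H3K36M allele behind its stop cassette, and both mice had been given 4NQO, a mutagen used to raise tumours of the mouth in mice. Cre driven by the Krt14 promoter acts in the basal cells of stratified epithelia and in the cells that descend from them, where it removes the stop and switches on a histone H3 with methionine in place of lysine 36. The sources used here do not state the ages of the mice.

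In a stratified epithelium, cells that leave the basal layer first make keratins and then, near the surface, a cornified envelope. This is a layer of cross-linked protein beneath the plasma membrane. Transglutaminases join loricrin, repetin, trichohyalin and the small proline-rich proteins into it, and the late cornified envelope proteins are added late in the process. The LCE1 genes are best known from normal human skin, whereas human LCE3 genes are low in normal skin and are induced in injured and psoriatic skin. On the dorsal tongue of the mouse, cornification is strongest on the filiform papillae, which also make hair-type keratins such as Krt36 and Krt84.

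The 6 Lce3 genes of the mouse are near copies of each other, and the likeness of their coding sequences shows how far the counts of single members can be trusted. Each has 2 exons and a coding sequence of 297 bases, stop codon included, which lies in a single exon. Lce3a, Lce3b, Lce3c and Lce3f were all identical at 280 of the 297 positions. Lce3c and Lce3f differed at 4 positions, and Lce3a and Lce3b at 17. Over all 15 pairs of the 6 genes, coding identity ran from 94.3% to 99.3%.

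The ends of the transcripts, where spatial arrays that capture polyadenylated RNA take most of their reads, were less alike. Over the last 150 bases of the GENCODE transcripts, 14 of the 15 pairs were 45.1% to 58.9% identical. Lce3b and Lce3c were the exception, with 90.1% identity there and 91.8% over the whole transcript. A short read from Lce3c can match other genes exactly: 25.7% of the windows of 90 bases in its transcript occurred, base for base, in a transcript of another gene, as did 44.1% of those of Lce3f. This share was 3.26% for Lce3a and 3.17% for Lce3b. These are shares of whole transcripts. The last shared window ended 197 bases before the end of the transcript in Lce3c and 254 in Lce3f. In Lce3a and Lce3b it ended 236 and 238 bases before the end, so no shared window of 90 bases reached the last 150 bases of a member. All the genes that shared such windows were Lce3 genes, Lce3d and Lce3e among them, so reads may be shared between members and also with those 2 genes. The sources used here do not say how reads that match several copies were assigned, so single members carry an uncertainty beyond the intervals printed.

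**Figure D1:**
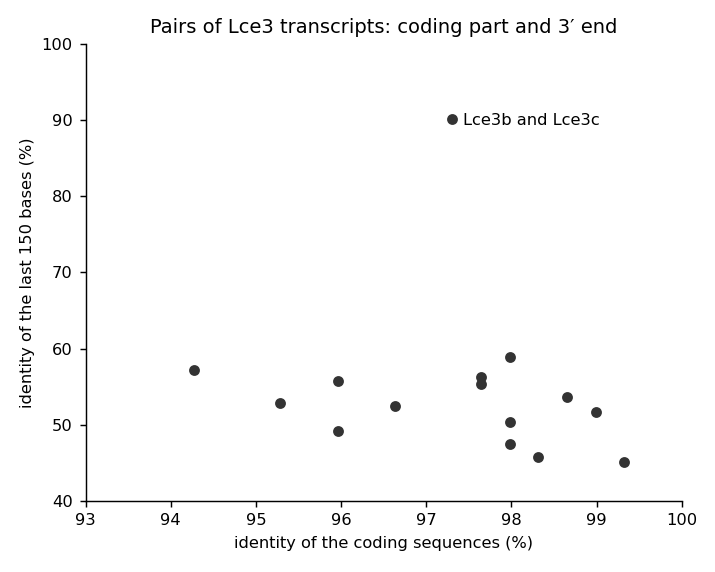
Identity of the coding sequences (x axis, %) against identity of the last 150 bases of the transcripts (y axis, %) for the 15 pairs of Lce3 genes. Every pair is at least 94.3% identical in the coding part, while all pairs but Lce3b and Lce3c are between 45.1% and 58.9% identical at the end of the transcript.

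The sequences just before the transcription starts are given because all the Lce3 genes were high in the same clusters. Each line holds the 120 bases before the RefSeq start on GRCm38.p6, on the strand of the gene, with capitals at ATAAAA and at TTGTGAAA, strings that were picked after the sequences had been read.
Lce3a (chr3:92926231-92926350, minus strand): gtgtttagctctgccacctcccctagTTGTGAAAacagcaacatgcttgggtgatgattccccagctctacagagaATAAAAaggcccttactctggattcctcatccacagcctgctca
Lce3b (chr3:92932859-92932978, plus strand): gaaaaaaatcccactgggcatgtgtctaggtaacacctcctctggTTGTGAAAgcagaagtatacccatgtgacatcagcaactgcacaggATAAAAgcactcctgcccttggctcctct
Lce3c (chr3:92944366-92944485, plus strand): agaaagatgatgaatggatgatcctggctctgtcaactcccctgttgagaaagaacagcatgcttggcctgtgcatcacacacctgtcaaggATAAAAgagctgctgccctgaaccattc
Lce3d (chr3:92957270-92957389, plus strand): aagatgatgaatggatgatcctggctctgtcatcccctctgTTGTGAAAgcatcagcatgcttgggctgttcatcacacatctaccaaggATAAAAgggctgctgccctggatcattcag
Lce3e (chr3:92966941-92967060, plus strand): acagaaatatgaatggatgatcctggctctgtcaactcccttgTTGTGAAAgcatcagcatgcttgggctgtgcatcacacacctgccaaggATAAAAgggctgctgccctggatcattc
Lce3f (chr3:92992097-92992216, plus strand): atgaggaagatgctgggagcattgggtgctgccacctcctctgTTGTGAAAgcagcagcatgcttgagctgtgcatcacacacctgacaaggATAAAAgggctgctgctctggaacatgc
ATAAAA began 28 to 30 bases before the start in Lce3b, Lce3c, Lce3d, Lce3e and Lce3f, and 44 bases before it in Lce3a. On the strand of the gene, between 40 and 20 bases before the start, it was present in 5 of 6 Lce3 promoters, 12 of 13 Lce1 promoters and 1.55% of all 32851 RefSeq promoters. The canonical TATAAA, which overlaps ATAAAA where a further A follows, was present in that window in 0 of 6 Lce3 promoters, 2 of 13 Lce1 promoters and 1.87% of all. TTGTGAAA, searched on both strands of the 250 bases before the start, was present in 5 of 6 Lce3 promoters, in 0 of 13 Lce1 promoters and in 1.03% of all. Lce3c was the Lce3 promoter without it. TGANTCA, the AP-1 motif, searched in the same way, was found in none of the 6 Lce3 or 13 Lce1 promoters and in 6.75% of all. These matches are strings of letters and were not tested for function.

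The data are UMI counts, that is counts of captured transcript molecules. The deposited tables give an average per cluster of spots, from which the UMIs of each gene and cluster were recovered. A rate is the number of UMIs of a gene for every 10000 UMIs of its cluster, with 95% intervals that cover counting error only. The 3 WT clusters held 856199, 1354340 and 72775 UMIs, and the 4 H3K36M clusters 17291, 306551, 193928 and 53037. The H3K36M section was shallower, with a deposited median of 763.5 UMIs per spot against 4899, and a deposited fraction of reads under tissue of 6.93% against 36.2%. A spot can hold several cells, so fewer cells of a type and less RNA per cell cannot be told apart. With 1 section per genotype there was no spread between animals and no test. The clusters were drawn from the same counts, so the fold changes and p-values of the authors' deposited tables describe the clusters and do not test them.

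In the WT section all 4 members were highest in cluster 1, at 6.90 times (6.64 to 7.19) their summed rate in cluster 2. Together they reached 154 UMIs per 10000 in cluster 1, 22.3 in cluster 2 and 102 in cluster 3. They thus made up 1.54% of all UMIs of cluster 1. In H3K36M, the sum was 56.6 in cluster 3, 15.8 in cluster 2, 14.5 in cluster 1 and 2.07 in cluster 4, so cluster 3 stood at 3.59 times (3.22 to 4.00) cluster 2 and 27.3 times (15.2 to 54.8) cluster 4.

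**Figure D2:**
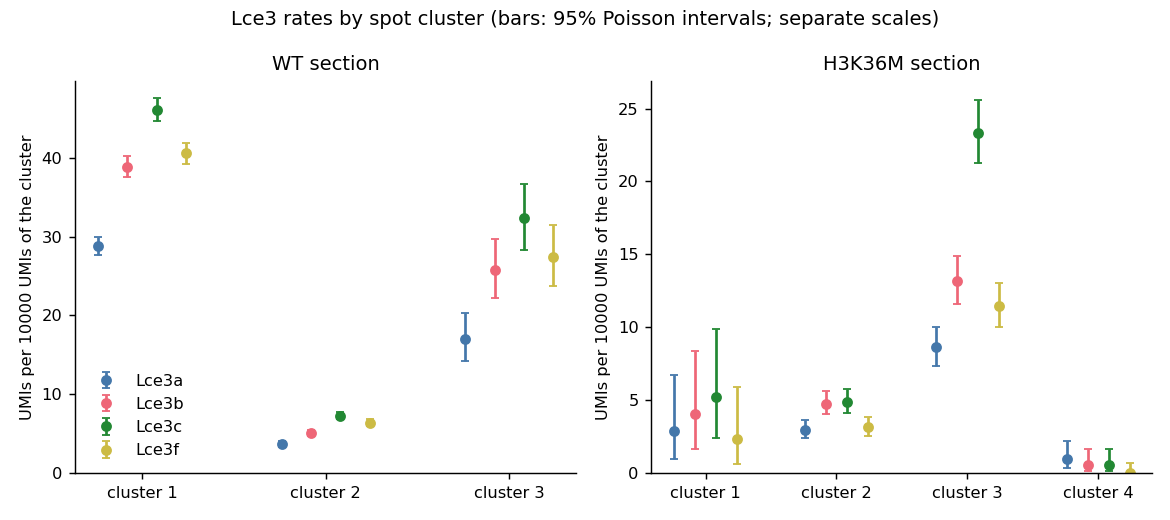
UMIs per 10000 UMIs of each spot cluster (y axis, separate scales) for the 4 genes in the WT section (left) and the H3K36M section (right), with 95% Poisson intervals as bars. All 4 genes peak in cluster 1 of WT and cluster 3 of H3K36M, and Lce3f has 0 UMIs in H3K36M cluster 4.

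Lce3c had the highest rate of the members in the WT section, at 46.1 (44.6 to 47.5) in cluster 1, 7.23 in cluster 2 and 32.3 in cluster 3. Lce3f followed with 40.6, 6.37 and 27.3. Lce3b had 38.9, 5.08 and 25.7. Lce3a was the lowest member in every WT cluster, at 28.7 (27.6 to 29.9), 3.65 and 17.0. In cluster 1 the intervals of Lce3b and Lce3f overlapped, and those of Lce3c and Lce3a lay apart from them on either side. Per kb of transcript the rates in cluster 1 were 81.2 for Lce3c, 69.1 for Lce3b, 66.4 for Lce3f and 52.4 for Lce3a. The middle pair again overlapped. UMIs count captured molecules, so a rate per kb is not a corrected level.

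The ratio of WT cluster 1 to the other clusters together was 6.63 (6.07 to 7.25) for Lce3a and 6.34 (5.88 to 6.84) for Lce3b. It was lower for Lce3c, at 5.42 (5.08 to 5.78), and for Lce3f, at 5.45 (5.09 to 5.84). In the authors' deposited table the log2 fold changes of cluster 1 were 2.72 for Lce3a, 2.66 for Lce3b, 2.43 for Lce3c and 2.44 for Lce3f. By the deposited p-values under 0.05, 4 of 4 members were higher in cluster 1, where 33.2% of the 865 listed genes were called higher, and 4 of 4 were lower in cluster 2, where 34.6% were called lower.

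The small WT cluster 3 also held much Lce3 RNA. All 4 rates there lay between those of clusters 1 and 2, and the sum in cluster 1 was 1.51 times (1.40 to 1.62) that in cluster 3. The deposited p-values of the members in cluster 3 ran from 0.0843 for Lce3c to 1 for Lce3a, so 0 of 4 were called in either direction, beside 5.43% of all listed genes. Cluster 3 also had the highest share of muscle transcripts: the 10 listed genes of 13 on a skeletal muscle list took 0.565% of its UMIs, while the shares of clusters 1 and 2 were 0.245% and 0.182%. Their part in the Lce3 levels was not tested.

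In the H3K36M section Lce3c was the highest member in cluster 3, at 23.4 (21.3 to 25.6), and it had 5.21 in cluster 1, 4.89 in cluster 2 and 0.566 in cluster 4. Lce3b had 13.1 (11.6 to 14.9) in cluster 3, and 4.05, 4.76 and 0.566 in clusters 1, 2 and 4. Lce3f had 11.4 (9.99 to 13.1) in cluster 3, and 2.31, 3.13 and 0 in the others. Lce3a had 8.61 (7.35 to 10.0) in cluster 3, and 2.89, 2.97 and 0.943 elsewhere. Lce3c alone stood clear of its neighbour in cluster 3. The intervals of Lce3b and Lce3f overlapped, as did those of Lce3f and Lce3a. Per kb of transcript Lce3c had 41.2, Lce3b 23.4, Lce3f 18.7 and Lce3a 15.7.

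Counts in clusters 1 and 4 were small, while cluster 2 held 483 UMIs of the members. In cluster 4 there were 5 UMIs of Lce3a, 3 of Lce3b, 3 of Lce3c and 0 of Lce3f among 53037. With 3 UMIs set in place of the 0, Lce3f would be 20.2-fold higher in cluster 3 than in cluster 4. The exact 95% interval of that ratio, from the count of 0, began lower, at 16.3. In cluster 1, 25 UMIs of the members were counted in all. Cluster 4 was the cluster in which simple epithelial genes were highest: Krt7 had 13.95 and Krt19 9.24 there, against 0.361 and 0.155 in cluster 3.

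By the deposited p-values, 4 of 4 members were higher in H3K36M cluster 3, where 23.5% of the 298 listed genes were called higher. Likewise 4 of 4 were lower in cluster 2 and 4 of 4 in cluster 4, where 30.5% and 36.2% of genes were called lower. In cluster 1, 0 of 4 were called in either direction, beside 10.7% of genes. The deposited log2 fold changes in cluster 3 were 1.67 for Lce3a, 1.66 for Lce3b, 2.43 for Lce3c and 2.10 for Lce3f. A gene entered a table only if its average reached 1 in some cluster, which equals 7.24 UMIs per 10000 in H3K36M. Each member passed this limit in cluster 3 alone, so a place in the table already fixed cluster 3 as its highest. In WT the limit was 1.99, which all 4 members passed in each of the 3 clusters.

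The mix of the 4 transcripts varied by a few percentage points between the WT clusters and by more in the H3K36M section. In WT cluster 1, Lce3a took 18.6%, Lce3b 25.2%, Lce3c 29.9% (29.1 to 30.7) and Lce3f 26.3% (25.5 to 27.1) of their UMIs. The Lce3c share was 32.4% in WT cluster 2 and 31.5% in WT cluster 3. In H3K36M cluster 3, Lce3c took 41.3% (38.4 to 44.3) and Lce3f 20.2% (17.9 to 22.7), while Lce3a and Lce3b took 15.2% and 23.2%. In H3K36M cluster 2 the Lce3c share was 31.1% (27.0 to 35.4), an interval that overlapped those of the WT clusters and not that of H3K36M cluster 3, and the Lce3b share was 30.2%. The Lce3f share of 19.9% (16.4 to 23.7) in cluster 2 was again below the 3 WT values of 26.3% to 28.5%. Its interval just overlapped that of the small WT cluster 3 (23.6 to 30.0). These shares do not depend on depth, but they do depend on how reads were split among near copies.

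**Figure D3:**
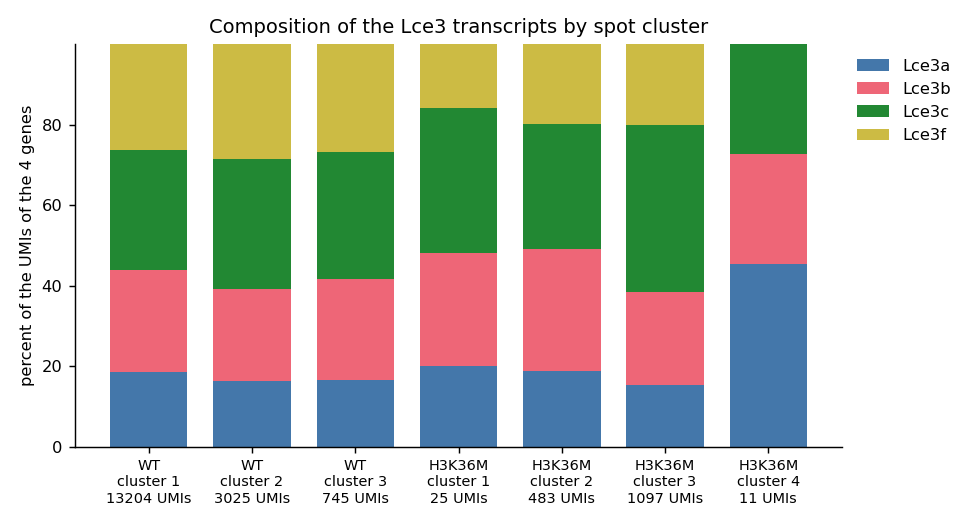
Percent of the summed UMIs of the 4 genes taken by each gene (y axis), per spot cluster, with the number of UMIs under each bar. Lce3c takes 29.9% to 32.4% in the WT clusters and 41.3% in H3K36M cluster 3, and the bars of H3K36M clusters 1 and 4 rest on 25 and 11 UMIs.

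Beside the members, Lce3d and Lce3e were listed in WT but not in H3K36M. Lce3e had 21.1 UMIs per 10000 in WT cluster 1, 3.66 in cluster 2 and 14.2 in cluster 3. Lce3d had 4.47, 0.421 and 2.89, and so was 10.6 times (8.03 to 14.3) higher in cluster 1 than in cluster 2. Both followed the same order of clusters as the members.

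The WT table also listed 12 genes of the Lce1 group, which were all lower than the members. Their rates in cluster 1 ran from 2.32 for Lce1e to 9.54 for Lce1a1. Lce1a2 lay between Lce1a1 and Lce1b, which had 7.79, and Lce1d had 7.45, Lce1g 7.28 and Lce1c 7.09. Lce1f had 4.43, Lce1j 4.41, Lce1k 3.60, Lce1i 2.84 and Lce1l 2.65. Lce3a, the lowest member, had 28.7 against the 9.54 of Lce1a1, and per kb of transcript 52.4 against 13.5. The members are, however, the only Lce genes that reached the H3K36M listing limit of 7.24, which only genes of high rate pass. Lce3d, which did not reach it, was lower in WT cluster 1 than Lce1a1, at 4.47. All 12 Lce1 genes were called higher in cluster 1, but Lce1e passed the WT listing limit of 1.99 there alone, which fixed its direction. Their log2 fold changes in the authors' deposited table ran from 2.25 for Lce1e to 3.24 for Lce1i. The median was 2.92, beside a median of -0.18 over all listed genes. Lce1j and Lce1l were about as high in cluster 3 as in cluster 1, with ratios of cluster 1 to cluster 3 of 0.945 (0.664 to 1.38) and 0.965 (0.610 to 1.61), where the 4 members had 1.43 to 1.69.

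The 4 members made up 62.4% (61.7 to 63.0) of all listed Lce UMIs in WT cluster 1. Their share was 66.1% (64.7 to 67.5) in WT cluster 2. It was 62.9% (60.0 to 65.6) in the small WT cluster 3. Lce3d and Lce3e count in these totals but not among the members. There were 2.29 member UMIs per Lce1 UMI in cluster 1 and 3.04 in cluster 2. In H3K36M no Lce gene other than the 4 was listed. If the other 14 Lce genes had kept their WT cluster 1 proportion to the members, 13 of them would have fallen under the limit of 7.24 in cluster 3. Lce3e would have reached 7.73. That the Lce1 genes were not listed in H3K36M therefore says nothing of their proportion to the members.

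The Lce3 genes lie side by side on chromosome 3 of GRCm38. Lce3a (chr3:92925287-92926230) is on the minus strand, and Lce3b (chr3:92932979-92934097), Lce3c (chr3:92944486-92945733), Lce3d (chr3:92957390-92958505), Lce3e (chr3:92967061-92968281) and Lce3f (chr3:92992226-92993426) are on the plus strand. They span 68.1 kb with 3 other annotated genes among them, the pseudogene Gm38078 and the small nuclear RNA genes Gm24481 and Gm22577, none of which was listed. Levels did not follow position: Lce3d and Lce3e, the lowest of the 6 in WT cluster 1, lie between Lce3c and Lce3f, the highest. Crct1, a cysteine-rich epithelial gene that flanks Lce3f, had 57.6 in WT cluster 1, 11.7 in cluster 2 and 36.6 in cluster 3. 2310050C09Rik, which flanks Lce3a, had 5.02, 0.325 and 3.16. Among the Lce genes of the region, Lce6a, Lce1h and Lce1m were not listed in either table.

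**Figure D4:**
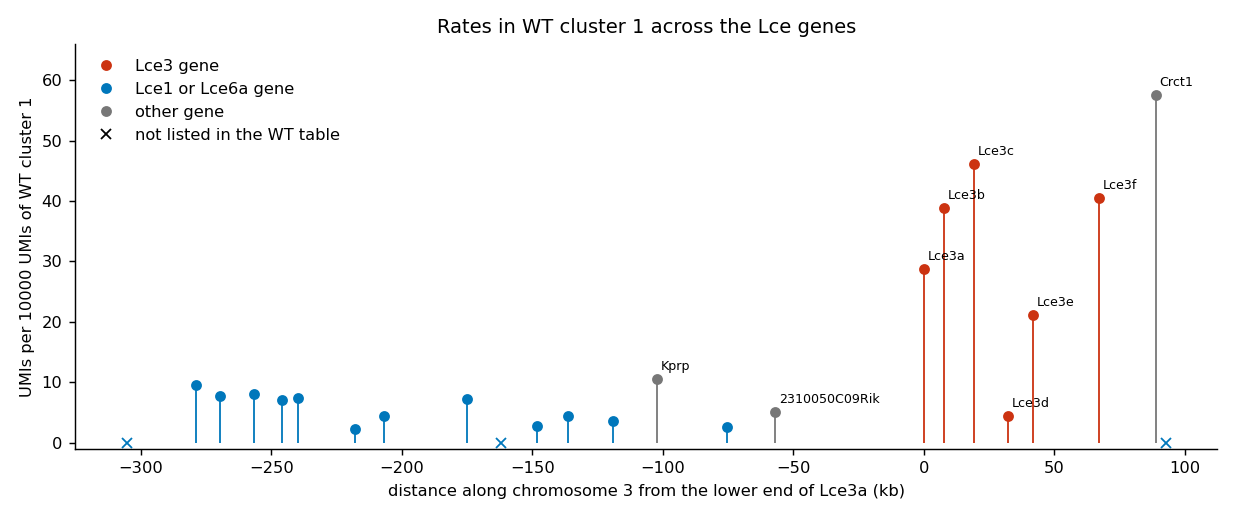
UMIs per 10000 UMIs of WT cluster 1 (y axis) against distance along chromosome 3 from the lower end of Lce3a (x axis, kb) for the protein-coding genes from Lce6a to Lce1m, with crosses for genes that are not listed. The Lce1 genes stay at or under 9.54, while the 4 members stand at 28.7 to 46.1 and Lce3d at 4.47.

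Transcripts of the proteins onto which the late envelope is laid were high in the same clusters as the members. Of 37 envelope precursor genes on the list used, 25 were listed in WT, and 24 of them were called higher in cluster 1 by the deposited p-values, beside the background of 33.2%. Their median log2 fold change was 1.76. The highest were 2310050C09Rik with 3.40, Kprp, a keratinocyte proline-rich protein, with 3.23, and Hrnr, a filaggrin-like protein, with 3.19. Hrnr and Sprr2j-ps passed the WT listing limit of 1.99 in cluster 1 alone, so their direction was fixed by being listed. Krtdap had -0.13 with a deposited p-value of 0.0663. The cross-linking enzymes Tgm1 and Tgm3 were both called higher in cluster 1, with log2 fold changes of 1.04 and 0.91, well under those of the members.

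In H3K36M cluster 3, 11 of 12 listed precursors were called higher, beside the background of 23.5%, with a median log2 fold change of 1.46 against -0.26 over all listed genes. Of the 12, Tchh, Crct1, Ppl and Sprr1b reached the listing limit in cluster 3 alone, so that their direction, like that of the members, was fixed by being listed. Repetin (Rptn) had 2.50, trichohyalin (Tchh) 2.47 and loricrin (Lor) 2.18. Sprr1a, a small proline-rich precursor, had 0.43 with a deposited p-value of 0.290. Tgm1 and Tgm3 were again called higher, at 1.17 and 0.83, and Tgm1 too was listed through cluster 3 alone. The surface keratins Krt76, Krt78, Krt80, Krt4 and Krt13 were all called higher in this cluster, as they were in WT cluster 1, and so were the papillary keratins Krt36 and Krt84.

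Further lists place the cluster in which the members peaked. In WT cluster 1, beside the background of 33.2%, 7 of 7 listed hair-type keratins were called higher, with log2 fold changes of 4.33 for Krt86, 4.03 for Krt81, 4.01 for Krt83 and, lowest, 1.52 for Krt84. Of the surface keratins, Krt76 had 2.53, Krt78 1.91, Krt80 1.72 and Krt4 0.19. The rate of Krt76 was nevertheless highest in WT cluster 3, at 23.2 against 12.9 in cluster 1, and that of Tchh was 20.5 against 16.4. All 9 listed proteases of desquamation, which shed surface cells, were called higher. They ran from 2.36 for Klk7, 2.27 for Asprv1 and 1.71 for Klk14 to 0.64 for Klk11. Krt86, Krt83 and Klk7 passed the WT listing limit of 1.99 in cluster 1 alone, which fixed their direction. The basal genes Krt14, Itga6, Col17a1 and Krt15 had -0.16, -0.47, -0.92 and -1.76. Krt6b, S100a9 and Krt16, which rise in stressed epithelium, had 0.60, 0.47 and 0.43, and Krt17 had -0.15. Of the 10 listed muscle genes, 3 were called higher in cluster 1 and 0 lower. The simple epithelial gene Cldn4 had 1.14, and it was listed through cluster 1 alone.

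In H3K36M cluster 3, surface genes were high as well. Krt36 and Krt84 had log2 fold changes of 3.72 and 3.30, Krt76 3.94, Krt78 1.95, Krt80 1.86 and Krt13 0.65. All 6 listed proteases were called higher, beside the background of 23.5%, with 2.49 for Asprv1, 1.71 for Klk8, 1.39 for Klk14 and 0.42 for Ctsd. Krt36, Krt84, Krt76, Krt78, Krt80, Asprv1, Klk8 and Klk14 passed the listing limit in cluster 3 alone, which fixed their direction. The muscle genes Mb, Atp2a1, Tnnt3 and Tnnc2 had -0.87, -0.92, -0.94 and -1.61. Of the 6 listed stress keratins and alarmins, 3 were called higher and 2 lower. The keratins Krt16, Krt17 and Krt6a were called higher, at 1.08, 0.67 and 0.50, while the alarmin S100a9 had -4.44. The keratin Krt6b was not among those called higher, and its rate was 39.96 in cluster 3 against 45.2 in cluster 2. The basal genes Krt15, Krt14 and Krt5 had -0.06, -0.21 and -0.37. The simple epithelial genes Cldn4, Krt7 and Krt19 had -0.53, -2.57 and -2.95. No gene of the fibroblast and endothelium lists was listed in either section.

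Relative to loricrin, the Lce3 level differed between the 2 peak clusters. There were 1.05 member UMIs per Lor UMI (1.02 to 1.07) in WT cluster 1 and 0.615 (0.588 to 0.644) in WT cluster 2. In H3K36M the ratio was 0.559 (0.518 to 0.602) in cluster 3 and 0.617 (0.550 to 0.692) in cluster 2. The intervals of clusters 1 and 2 lay apart in WT, and those of clusters 3 and 2 overlapped in H3K36M.

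The genes whose pattern over clusters was most like that of each member were picked by the largest difference of centred log2 rates, among listed genes with at least 50 UMIs and outside the Lce family. Over the 3 WT clusters, the nearest to Lce3a were Cdsn, Sprr2k, Pla2g4d, Dusp14 and Spns2, with largest differences of 0.023 to 0.162. Cdsn encodes corneodesmosin, which holds cornified cells together. Lce3b was nearest to Pla2g4d, Cdsn, Sprr2k, Klk9 and Dusp14. Lce3c was nearest to Dusp14, Pla2g4d, Rptn, Spns2 and Cdsn, and Lce3f to Dusp14, Rptn, Pla2g4d, Spns2 and Acp7. Within the family, Lce3c and Lce3f were nearest to each other, at 0.037.

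Over the 4 H3K36M clusters the matches were looser, but the measure differed. The largest difference was taken over 4 clusters in place of 3, with 294 genes to pick from in place of 847. In clusters 1 and 4 the members together had only 25 and 11 UMIs. Lce3a was nearest to Sbsn, Vsig8, Fam25c, Klk14 and Calm4, with Sbsn at 0.131. Lce3b was nearest to Ada, Cdsn, Dsg1a, Sprr1b and Tchh, with Ada at 0.235. Lce3c was nearest to Cdsn, 2310046K23Rik, Rptn, Tchh and Asprv1, with Cdsn at 0.254. Lce3f was nearest to Serpinb12, Defb4, Tgm3, Serpinb3a and Sprr1b, none closer than 0.709, and its pattern turns on the UMI added to its count of 0 in cluster 4. Likeness over 3 or 4 clusters that share a section is a description.

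Side by side, the H3K36M section had lower rates of all 4 members than the WT section. Over whole sections, Lce3a had 4.70 against 13.5, Lce3b 7.20 against 18.4, Lce3c 10.8 against 22.6 and Lce3f 5.64 against 19.9. These are ratios of 0.348 (0.306 to 0.394), 0.391 (0.353 to 0.433), 0.477 (0.438 to 0.519) and 0.284 (0.253 to 0.318). The 284 genes listed in both tables had a median ratio of 1.01, and 5 of them had a lower ratio than Lce3f, 10 than Lce3a, 16 than Lce3b and 23 than Lce3c. These ratios rest on the UMI totals read from the averages: with totals at the deposited median UMIs per spot, the summed members would stand at 0.671 in place of 0.381 and the median gene at 1.77 in place of 1.01. Depth differed between the sections as given above, and its part in these ratios was not tested. The 284 genes leave out every gene that stayed under the limit of 7.24 in all H3K36M clusters, while the WT limit was lower, at 1.99. Their median and the ranks of the members among them therefore miss genes that were low in H3K36M. Sprr2i, at 39.2 in WT cluster 1, was such a gene.

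Between the peak clusters, WT 1 and H3K36M 3, the ratio of the summed members was 0.367 (0.345 to 0.390), where the median of the 284 genes was 1.10. It was 0.300 for Lce3a, 0.338 for Lce3b, 0.507 for Lce3c and 0.282 for Lce3f. Between the cluster 2 of each section it was 0.705 (0.639 to 0.777), with 0.812, 0.938, 0.677 and 0.491 in the same order. The intervals of Lce3a and Lce3b there ran past 1. Clusters were numbered in each section by itself, so the regions called cluster 2 need not match. Krt14, for example, had 92.8 in WT cluster 2 and 44.8 in H3K36M cluster 2.

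The other envelope and keratin genes spread on both sides of the members. The 12 envelope precursors in both tables had a median of 0.550 over whole sections. Lor stood at 0.611, Rptn at 0.517 and Crct1 at 0.378. The WT section listed 25 precursors, and those not listed in H3K36M are left out of this median. The small proline-rich gene Sprr1a was lower than all 4 members, at 0.214 (0.189 to 0.242). Sprr1b had 0.274 (0.243 to 0.308), an interval that overlapped that of Lce3f. Sprr3 stood at 0.348 and Tchh at 0.440, within the range of the members, and Ecm1 was higher in H3K36M, at 2.52. The 6 stress keratins and alarmins had a median of 0.310, with 0.0900 for S100a8, 0.102 for S100a9, 0.302 for Krt6b, 0.319 for Krt17, 0.443 for Krt16 and 0.615 for Krt6a. Low ratios were therefore not particular to the Lce3 genes. The 5 surface keratins had a median of 0.865, from 0.473 for Krt76 to 1.17 for Krt4, and Krt36 and Krt84 had 0.688 and 0.754. The cross-linking enzymes Tgm1 and Tgm3 had 0.704 and 0.911. Scaled to Lor, the summed members stood at 0.623, and scaled to the genes in both tables without ribosomal protein and mitochondrial genes at 0.501. The size of the difference thus moved with the denominator. Over whole sections the H3K36M value was the lower one under each denominator tried. Within cluster 2 of each section, members per Krt36 UMI were 4.99 in WT and 9.11 in H3K36M, and per Krt84 UMI 7.25 and 12.1. Per Lor UMI they were 0.615 and 0.617, and per Krt13 UMI 0.0829 and 0.0530. Genotype and section cannot be told apart, since each genotype is 1 section.

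**Figure D5:**
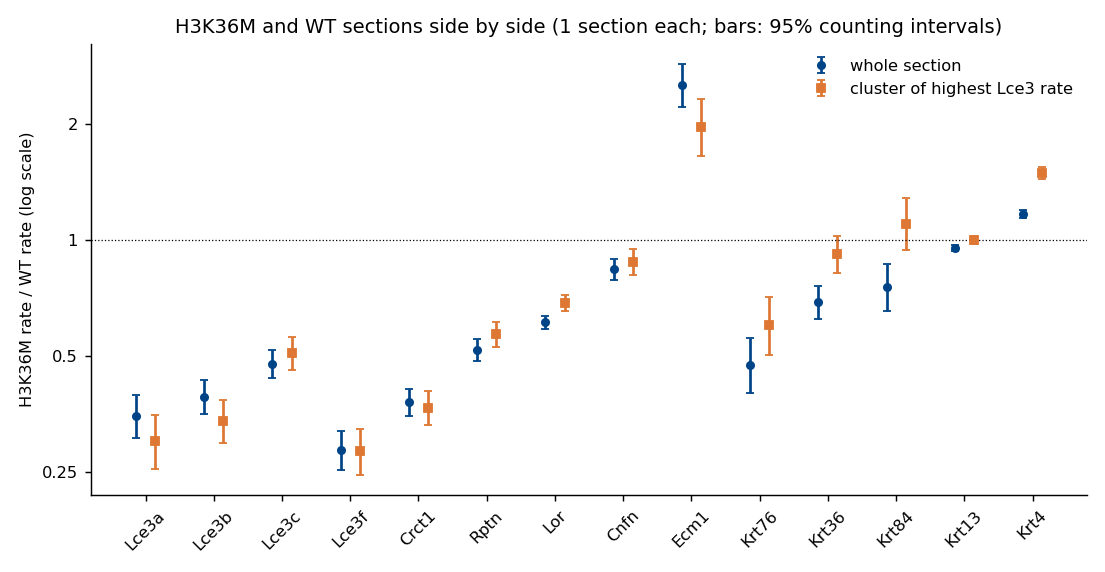
Ratio of the H3K36M to the WT rate (y axis, log scale) for the 4 members, other envelope genes and surface keratins, over whole sections (circles) and between the clusters of highest Lce3 rate (squares), with 95% counting intervals. The 4 members lie between 0.282 and 0.507, under Lor at 0.611 and 0.688 and Krt13 at 0.954 and 0.999. Crct1, at 0.378 and 0.366, lies within their range. Genes with lower ratios, such as Sprr1a and S100a8, are not plotted.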

How the data were processed

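Visium sections of 4NQO-treated mouse tongue, 1 WT and 1 H3K36M, were analysed. Space Ranger and GRCm38 (mm10) are named in the submitters' processing notes. The deposited metrics give counts of spots and reads and shares of reads as a fraction. For each listed gene and cluster, the deposited tables hold an average signal, a p-value and a log2 fold change, per the file headers. Whether a deposited p-value was adjusted is not given in the sources used here.

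Within a cluster, each average was a whole number of steps of 1 size (100% within 0.01), and the deposited log2 fold changes were recomputed with 1 UMI added to each side, which fixed the UMIs. Cluster totals were read as the smallest that were whole in every cluster, at a median of 5027 (WT) and 1380.5 (H3K36M) UMIs per spot. The deposited metrics give 4899 and 763.5, so rates rest on this reading, whereas ratios within a section do not. Intervals are exact Poisson, conditional or binomial at 95%. The calculation was tested on simulated data.

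The members and lists were chosen with earlier results of these data known. Genes named were the members, all other listed Lce genes, the 3 largest and the smallest log2 fold change of each list where the members peaked (not all are printed), the 5 nearest in pattern, and flanking genes. Others, such as Crct1, Ecm1 and the keratins, were named after their values were seen. Alternatives were other denominators, clusters and thresholds. Positions and transcripts came from GENCODE M21 and promoters from RefSeq. Coding sequences were compared base by base and are not reported here, and transcripts were aligned globally with Biopython 1.88. Python 3.11, numpy 2.4.6, pandas 2.3.3, scipy 1.17.1 and matplotlib 3.10.9 were used.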

Additional observations from a re-analysis of the deposited data

How the results depend on the processing

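With all UMIs and with the 2 other denominators of cluster rates, each member peaked in cluster 1 of WT and in cluster 3 of H3K36M, the smallest ratio to the next cluster being 1.24 (Lce3c in WT, without ribosomal protein and mitochondrial genes). The 7 counts of members called were the same at a deposited p under 0.01 and with a minimum log2 fold change of 1. Sizes moved. The ratio of WT cluster 1 to cluster 2 went from 6.90 to 6.58 with a denominator of listed genes without hair-type keratins, keratin-associated proteins and Lce genes, and to 5.37 without ribosomal protein and mitochondrial genes, a denominator added after the data were seen. The latter took the ratio of H3K36M cluster 3 to cluster 2 from 3.59 to 2.78. Against the next highest cluster alone, WT cluster 1 stood at 1.51 in place of 5.84, and H3K36M cluster 3 at 3.59 in place of 4.11. Without the smallest cluster the WT value was 6.90. Of the envelope precursors in both tables, 11 were higher in WT cluster 1, against 24 of those listed in WT, since fewer genes were counted. The ratio of the sections went from 0.381 to 0.623 per Lor UMI, to 0.501 with the genes in both tables without ribosomal protein and mitochondrial genes and to 0.671 with totals at the deposited median UMIs per spot, all added later, and was 0.383 per surface keratin UMI. The cause of the shifts with denominators and totals was not tested. A share of the Lce genes listed in both tables gave no value, since these are the 4 members themselves. No paired analysis was possible because each genotype is 1 section. Depth limits the H3K36M clusters 1 and 4, with 25 and 11 member UMIs.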
